A study of Homo sapiens with 3 samples.

Results

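The genes described here encode the TGF-beta and BMP family, its receptors and the SMAD proteins that carry its signal. They are the 59 protein-coding genes whose symbols name TGF-beta, BMP, GDF, activin and inhibin ligands, type I and type II receptors, SMADs, latent TGF-beta binding proteins and a few secreted antagonists, with nodal and myostatin. The table holds 58735 genes, of which 19951 are protein-coding. GDF15 was left out by the rule that chose the genes. The study was about centriole overduplication and the RNA-binding protein Unkempt. RNA was measured by poly(A)-selected sequencing in 3 libraries of RPE-1, an immortalised line derived from human retinal pigment epithelium. The cells carry GFP on CETN2 to mark centrioles and PLK4 under rtTA control, which doxycycline switches on. All 3 libraries form 1 group, which received scramble siRNA and had no induction of PLK4, so no comparison between treatments was made here. The labels do not state whether the 3 libraries are separate cultures or whether the line is 1 clone. Every p-value therefore concerns these samples alone, and the spread among them may be technical. The chi-square p-values below set that spread against counting error, with or without a fixed extra variation, and not against a spread among replicates.

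Ligands of this family are secreted dimers that bring a type II and a type I receptor kinase together. TGF-beta and activin receptors phosphorylate SMAD2 and SMAD3, whereas BMP receptors phosphorylate SMAD1, SMAD5 and SMAD9, and both sets then enter the nucleus with SMAD4. SMAD6 and SMAD7 inhibit the pathway, and latent TGF-beta binding proteins store TGF-beta in the matrix. In retinal pigment epithelium, TGF-beta is best known for driving an epithelial to mesenchymal change with matrix deposition.

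The libraries held 49279692, 60040029 and 46625774 counts. Levels are given as CPM, counts scaled to library totals that were adjusted by TMM, and as RPKM, CPM per kilobase of annotated exon, which is the scale used between genes. A gene was called detected with at least 1 CPM in each library. Library 1 stood apart from the rest of the series: the SD of log2 ratios over all tested genes was 0.355 between libraries 1 and 2, 0.351 between 1 and 3, and 0.187 between 2 and 3. For the 41 tested family members the same SDs were 0.304, 0.256 and 0.145. The labelled cell type was only partly borne out by its markers, as OTX2 (5.47 ± 0.239 RPKM, SD, n = 3), MITF (3.05 ± 0.253), BEST1, PMEL and SERPINF1 were detected, whereas RPE65, RLBP1, TTR, TYR, DCT, LRAT and RGR were not. KRT8, KRT18, VIM, FN1, CDH2, ACTA2 and TAGLN were detected and the epithelial genes CDH1 and EPCAM were not. Of 8 blood markers 3 were detected, with summed levels of 12.3, 11.1 and 11.03 CPM in libraries 1, 2 and 3, and CD3E and HBB at 0. Of 8 neuron and liver markers 4 were detected, with SYT1 highest, and RBFOX3, APOA1 and TTR at 0. In bulk RNA, fewer cells of a type and less RNA per cell cannot be told apart.

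Of the 59 family members 33 were detected (55.9%), against 57.7% of all protein-coding genes. The detected members had a median of 7.20 RPKM, against 6.09 RPKM for all detected protein-coding genes. The family was represented by a few abundant secreted factors, TGFB1, INHBA, GREM1 and TGFB2, by TGFBR2 among the receptors and by SMAD3 among the SMADs. Most BMP and GDF ligands were below detection. Together the 59 genes took 3576, 3211 and 3215 CPM in libraries 1, 2 and 3.

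**Figure D1:**
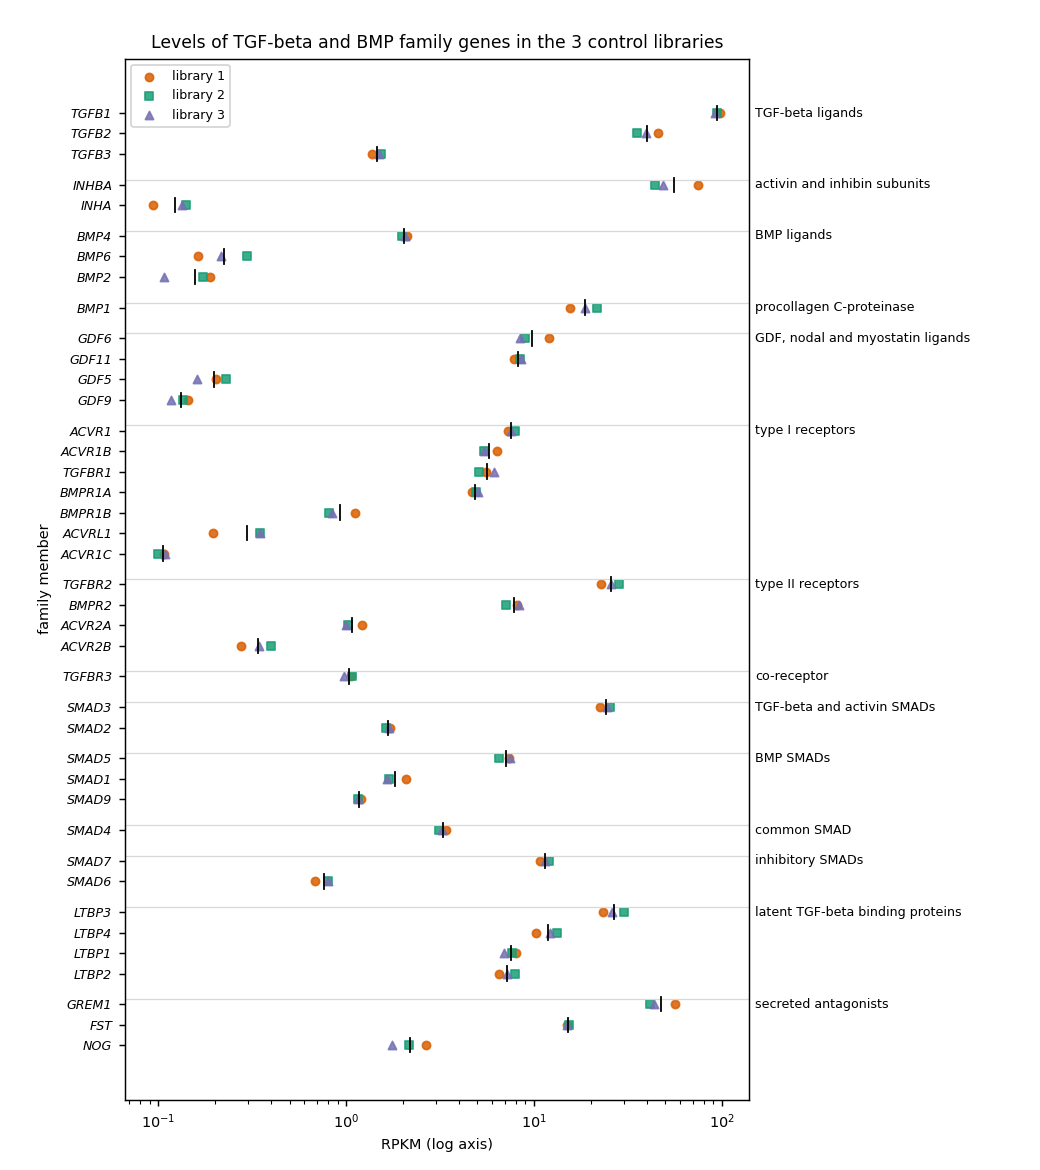
Level in RPKM (log axis) of members with a mean count of at least 10, grouped by role; 1 such member is not drawn. Circles, squares and triangles are libraries 1, 2 and 3 and the vertical bar is their mean; TGFB1, INHBA, GREM1 and TGFB2 lie furthest to the right, and the symbols of INHBA are spread more widely than those of TGFB1.

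Promoter windows are shown for INHBA, GREM1 and TGFB2, 3 abundant secreted factors that were highest in library 1 and held a motif searched. SMAD6 is shown because it alone among the matched members held the longest motif. TGFB1, the most abundant member and also highest in library 1, held none of the motifs and is not shown. The windows run from 250 bases before to 50 bases after a start site annotated by RefSeq, and 50 of the 59 members had at least 1 window. Both strands were searched for CAGACA, which contains a core bound by SMAD3 and SMAD4, for GGCGCC, a GC-rich motif bound by BMP SMADs, and for the palindrome GTCTAGAC, and none of these motifs contains another. GREM1 had 2 windows, and the one with a match is shown. The TGFB2 window lies before the start of the gene in the GENCODE annotation, which was used for positions and lengths. The INHBA window lies inside the gene in that annotation, where the gene starts at base 41705834 on the minus strand. Capitals mark CAGACA or its reverse complement in the first 3 sequences and GTCTAGAC in the last.
INHBA (GRCh38.p14, chr7:41703041-41703340, minus strand): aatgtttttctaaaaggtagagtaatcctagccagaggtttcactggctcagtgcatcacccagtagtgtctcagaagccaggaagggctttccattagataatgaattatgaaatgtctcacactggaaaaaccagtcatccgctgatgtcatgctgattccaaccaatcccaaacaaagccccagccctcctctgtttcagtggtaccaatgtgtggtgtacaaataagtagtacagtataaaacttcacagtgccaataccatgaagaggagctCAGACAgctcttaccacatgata
GREM1 (GRCh38.p14, chr15:32717754-32718053, plus strand): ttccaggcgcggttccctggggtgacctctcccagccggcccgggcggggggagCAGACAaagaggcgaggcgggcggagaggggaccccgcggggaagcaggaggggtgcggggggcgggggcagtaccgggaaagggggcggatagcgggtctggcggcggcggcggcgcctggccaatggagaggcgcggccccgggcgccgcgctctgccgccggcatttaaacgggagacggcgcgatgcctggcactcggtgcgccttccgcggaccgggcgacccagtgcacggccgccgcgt
TGFB2 (GRCh38.p14, chr1:218345086-218345385, plus strand): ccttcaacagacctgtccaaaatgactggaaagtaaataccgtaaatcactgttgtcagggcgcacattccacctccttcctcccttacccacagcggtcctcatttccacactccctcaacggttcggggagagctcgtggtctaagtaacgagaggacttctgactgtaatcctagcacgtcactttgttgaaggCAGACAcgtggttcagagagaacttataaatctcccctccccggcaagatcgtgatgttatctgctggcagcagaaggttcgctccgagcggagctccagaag
SMAD6 (GRCh38.p14, chr15:66701986-66702285, plus strand): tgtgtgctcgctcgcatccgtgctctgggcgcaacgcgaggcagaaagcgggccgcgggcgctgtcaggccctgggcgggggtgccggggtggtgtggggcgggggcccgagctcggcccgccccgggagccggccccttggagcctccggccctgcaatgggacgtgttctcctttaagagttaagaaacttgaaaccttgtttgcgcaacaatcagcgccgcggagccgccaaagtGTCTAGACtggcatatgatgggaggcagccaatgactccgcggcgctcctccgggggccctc

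The CAGACA match began 27 bases after the start site in INHBA. Relative to the start site it began at base -196 in GREM1 and at base -53 in TGFB2. CAGACA stood in 17 of 86 member windows (19.8%), against 16.9% of all 35116 windows. GGCGCC stood in 22 of 86 member windows (25.6%), against 19.2% of all windows. GTCTAGAC was found in 1 of 86 member windows, that of SMAD6, where it began at base -12, against 71 of all 35116 windows (0.202%). A match is a stretch of letters and not a measured binding site.

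The TGF-beta ligands differed widely in level. TGFB1 (ENSG00000105329, hg38 chromosome 19, 41301587 to 41353911) reached 98.1, 93.99 and 91.6 RPKM in libraries 1, 2 and 3 (mean 94.6 ± 3.28, SD, n = 3). It was the highest of all members and exceeded 97.1% of detected protein-coding genes. TGFB2 (ENSG00000092969, chromosome 1, 218346235 to 218444619) stood at 45.4, 35.5 and 39.4 RPKM. The transcript TGFB2-OT1 shares 26.6% of its exon length on the same strand, so some reads could belong to either. TGFB3 (ENSG00000119699, chromosome 14, 75958099 to 75982991) reached 1.38, 1.54 and 1.49 RPKM. Within each library TGFB1 exceeded TGFB2 2.37-fold per exon length (log2 ratio 1.24 ± 0.15, SD) and TGFB2 exceeded TGFB3 27.2-fold (4.77 ± 0.26), or 14.5-fold with the length of the principal transcript in place of all exons. TGFB1 therefore made up 69.5% ± 2.04 (SD, n = 3) of the summed RPKM of these ligands and TGFB2 29.4% ± 2.15.

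Among the activin and inhibin subunits, INHBA was the only one detected. INHBA (ENSG00000122641, chromosome 7, 41667168 to 41705834) encodes the subunit of activin A and stood at 74.5, 43.7 and 48.3 RPKM in libraries 1, 2 and 3 (mean 55.5 ± 16.6, SD, n = 3). Library 1 was thus far above the others. INHA, the inhibin alpha subunit, had 8, 15 and 11 counts. INHBE had 8, 3 and 4 counts, INHBC 0, 1 and 1 and INHBB, the subunit of activin B, 0, 1 and 0. The limit behind a 0 is 3 counts, equal to 0.0618 CPM in library 1, 0.0494 in library 2 and 0.0641 in library 3.

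Of the 10 BMP ligand genes only BMP4 was detected, at 2.11, 1.98 and 2.05 RPKM (mean 2.04 ± 0.0648, SD, n = 3), and its 3 libraries lay close together. BMP6 had 22, 50 and 28 counts in libraries 1, 2 and 3, and BMP2 33, 38 and 18. BMP4 exceeded BMP2 13.2-fold per exon length (log2 ratio 3.72 ± 0.43, SD, n = 3), or 21.2-fold with the principal transcript. BMP8A and BMP8B are close paralogues that can divide reads, and they had 0, 2 and 3 counts and 0, 9 and 5 counts. BMP3 had 0, 7 and 3 counts and BMP10 0, 2 and 2, while BMP5, BMP7 and BMP15 had none. BMP1 (ENSG00000168487, chromosome 8, 22164736 to 22212326) is named with the BMPs but encodes a protease that trims procollagen and cleaves chordin, and it was well expressed, at 15.6, 21.6 and 18.7 RPKM (mean 18.6 ± 2.999, SD, n = 3).

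Among the GDF, nodal and myostatin genes, GDF6, a BMP-type ligand, reached 11.9, 8.91 and 8.45 RPKM (mean 9.77 ± 1.90, SD, n = 3), and GDF11, the closest relative of myostatin, 7.81, 8.42 and 8.50 RPKM (8.24 ± 0.379). Library 1 was highest for GDF6 and lowest for GDF11. The other 9 were below detection. GDF5 had 26, 37 and 20 counts, with 35.2% of its exon length overlapped by GDF5OS on the opposite strand, and GDF9 had 23, 27 and 18 counts. MSTN had 0, 0 and 3 counts, NODAL 0, 2 and 2 and GDF7 0, 1 and 0, while GDF1, GDF2, GDF3 and GDF10 had none. All of the exon length of GDF1 (100%) is shared with CERS1 on the same strand, so its 0 does not show that the transcript is missing.

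All 4 type II receptor genes were detected. TGFBR2 (ENSG00000163513, chromosome 3, 30606502 to 30694142), the TGF-beta receptor, led with 22.6, 28.4 and 25.8 RPKM in libraries 1, 2 and 3 (mean 25.6 ± 2.86, SD, n = 3). The BMP receptor BMPR2 followed at 8.11, 7.07 and 8.28 RPKM (7.82 ± 0.654). The activin receptors were lower, ACVR2A at 1.21, 1.02 and 0.995 RPKM and ACVR2B at 0.275, 0.4004 and 0.342 RPKM. BMPR2 exceeded ACVR2A 7.26-fold per exon length (log2 ratio 2.86 ± 0.17, SD) and ACVR2A exceeded ACVR2B 3.20-fold (1.68 ± 0.41). Reads of ACVR2A may be shared with ORC4, which with AC009480.1 overlaps 7.98% of its exon length on the opposite strand.

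The 5 detected of the 7 type I receptors averaged 0.925 to 7.56 RPKM, and the 4 type II receptors 0.339 to 25.6 RPKM. The narrower range rests on detection, as the undetected ACVRL1 and ACVR1C averaged 0.297 and 0.106 RPKM. ACVR1, which pairs with BMP and activin type II receptors, averaged 7.56 ± 0.316 RPKM, the activin receptor ACVR1B 5.72 ± 0.543, the TGF-beta receptor TGFBR1 5.60 ± 0.527 and the BMP receptor BMPR1A 4.87 ± 0.184 (SD, n = 3 each). TGFBR1 and ACVR1B are neighbours that did not differ beyond their spread. Their log2 ratio was -0.19, -0.08 and 0.18 in libraries 1, 2 and 3 (two-sided exact sign-flip p = 0.75). BMPR1A lay below ACVR1 in 3 of 3 libraries, with a log2 ratio of -0.63 ± 0.04 (SD) that became 0.88 without length. BMPR1B, another BMP receptor, stood at 1.12, 0.814 and 0.843 RPKM. The endothelial receptor ACVRL1 missed detection only in library 1, with 0.989, 1.74 and 1.75 CPM, and ACVR1C had 48, 56 and 47 counts. TGFBR1 stood 4.56-fold below TGFBR2 (log2 ratio -2.19 ± 0.25, SD, n = 3). TGFBR3, the co-receptor betaglycan, reached 1.06, 1.07 and 0.977 RPKM.

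All 8 SMAD genes were detected, with SMAD3 far above the others. SMAD3 (ENSG00000166949, chromosome 15, 67063763 to 67195195) stood at 22.4, 25.2 and 24.5 RPKM in libraries 1, 2 and 3 (mean 24.0 ± 1.46, SD, n = 3). SMAD2 (ENSG00000175387, chromosome 18, 47808957 to 47931146), its partner in TGF-beta and activin signalling, stood at 1.71, 1.62 and 1.69 RPKM. The SMAD2 exons span 36366 bases in the annotation, against 9113 for SMAD3, and the log2 ratio of SMAD2 over SMAD3 was -3.84 ± 0.12 (SD, n = 3) per exon length but -1.85 without length. SMAD2 lay below SMAD3 in 3 of 3 libraries on either scale. The common SMAD4 (chromosome 18, 51028394 to 51085045) averaged 3.26 ± 0.133 RPKM, 7.37-fold below SMAD3 (log2 ratio -2.88 ± 0.15). Of the BMP SMADs, SMAD5 reached 7.37, 6.51 and 7.41 RPKM, SMAD1 2.09, 1.70 and 1.66 RPKM and SMAD9 1.20, 1.15 and 1.15 RPKM. SMAD1 lay 3.91-fold below SMAD5 (log2 ratio -1.97 ± 0.18), or at a log2 ratio of -0.80 with the length of the principal transcript in place of all exons. Of the inhibitory SMADs, SMAD7 reached 10.8, 12.05 and 11.5 RPKM and exceeded SMAD6, at 0.683, 0.802 and 0.799 RPKM, 15.1-fold (log2 ratio 3.91 ± 0.07, SD, n = 3), or 7.66-fold with the length of the principal transcript.

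All 4 latent TGF-beta binding proteins were detected. LTBP3 (ENSG00000168056, chromosome 11, 65538805 to 65558930) was the highest, with 23.4, 30.1 and 26.1 RPKM in libraries 1, 2 and 3 (mean 26.5 ± 3.37, SD, n = 3). LTBP4 reached 10.2, 13.3 and 12.1 RPKM, LTBP1 7.99, 7.58 and 6.91 RPKM and LTBP2, which unlike the others does not bind latent TGF-beta, 6.48, 7.91 and 7.21 RPKM. LTBP1 and LTBP2 changed places between libraries. LTBP3 exceeded LTBP4 2.23-fold (SD of the log2 ratio 0.05) and LTBP1 3.52-fold (1.82 ± 0.24), which became 5.67-fold with the principal transcript. LTBP1 stood 12.6-fold below TGFB1 (log2 ratio -3.66 ± 0.06, SD, n = 3).

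Of the secreted antagonists, GREM1 (ENSG00000166923, chromosome 15, 32717974 to 32745107), which binds BMPs, stood at 56.4, 41.5 and 43.7 RPKM in libraries 1, 2 and 3 (mean 47.2 ± 8.05, SD, n = 3). FST (ENSG00000134363), which binds activins, reached 15.0, 15.3 and 15.0 RPKM (15.1 ± 0.140), the steadiest values of all detected members. NOG, another BMP antagonist, reached 2.65, 2.16 and 1.75 RPKM. GREM1 exceeded NOG 21.7-fold (log2 ratio 4.44 ± 0.19, SD) and FST lay 3.57-fold below INHBA (-1.84 ± 0.41), with log2 ratios of -2.31, -1.52 and -1.69 in libraries 1, 2 and 3. The antagonist CHRD was below detection, with 7, 5 and 5 counts.

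**Figure D2:**
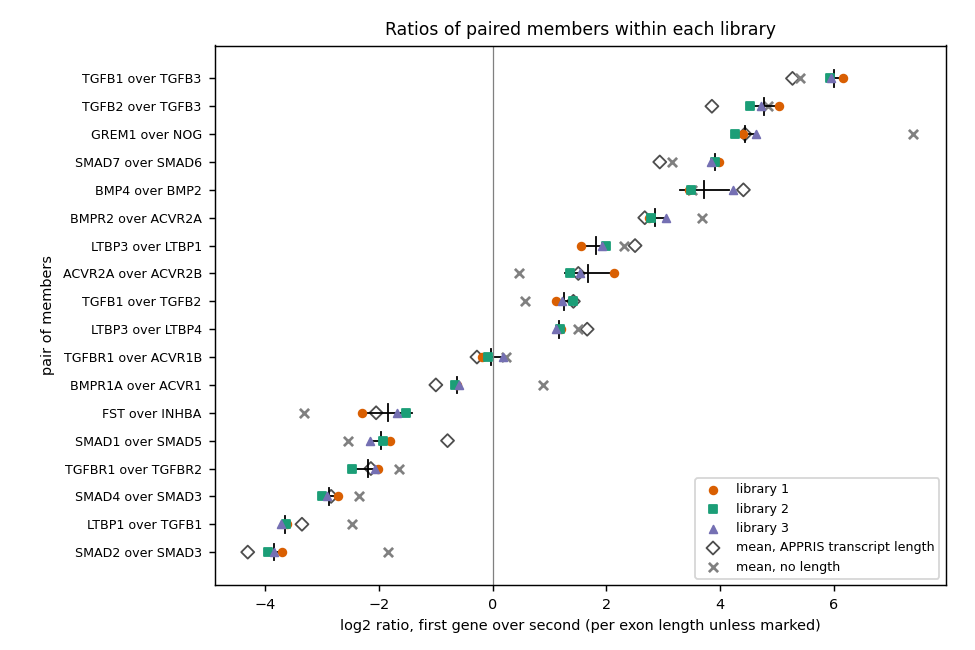
Log2 ratio of the first gene over the second within each library for the 18 pairs in which both members averaged at least 10 counts. Coloured symbols are the 3 libraries, black bars the mean and SD, diamonds the mean with the length of the principal (APPRIS) transcript and crosses the mean without length; only BMPR1A over ACVR1 and TGFBR1 over ACVR1B have a cross on the other side of 0 from the mean.

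These ratios come from 18 of 19 chosen pairs, since INHBB had too few counts. The length used bears on their size: 6 of the 18 moved by over 1.5 times with the principal transcript and 10 without length, as the plot of ratios shows. In 17 of the 18 all 3 libraries lay on the same side of 0. The two-sided exact sign-flip test then gave p = 0.25 (adjusted p = 0.265 over the 18 pairs), and 0.25 is the smallest p that 3 libraries allow, so these differences can be set only against the spread shown.

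The spread of each member over the libraries was tested next. A chi-square test of the 3 counts against the scaled library sizes found a spread beyond counting noise in 27 of 41 tested members (65.9%), against 68.6% of all 16293 tested genes and 73.7% of the tested protein-coding genes (Benjamini-Hochberg adjustment over all tested genes, threshold 0.05). The share of members was thus near the background. Of the 41 tested members, 12 passed with library 1 highest and 12 with it lowest, against 27.9% and 33.4% of all tested genes. When a CV of 0.05 was added to counting noise for each gene (the extra variation below), 13 members passed, against 32.7% of all tested genes. Between libraries 2 and 3 alone 12 members passed, against 28.1%, and all 12 were among the 27. The common CV beyond counting noise, estimated by edgeR over 15026 genes, was 0.135 for the 3 libraries and 0.0602 without library 1. The extra CV of 0.05 lies below both values, so passing with it does not by itself mark a gene as unusually variable among these libraries.

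INHBA had the largest chi-square statistic of the members, 4281, with 618, 363 and 401 CPM. It was 1.70 times as high in library 1 as in library 2, and it passed with the extra variation (chi-square adjusted p = 2.79e-14) and between libraries 2 and 3 alone (2.21e-21). GREM1 stood at 824, 606 and 638 CPM (adjusted p = 0.000104 with the extra variation) and TGFB2 at 234, 183 and 203 CPM (0.0102). These 3 abundant secreted factors were therefore highest in library 1 and lowest in library 2. GDF6 stood at 44.2, 33.0 and 31.3 CPM (adjusted p = 5.59e-05 with the extra variation), BMPR1B at 7.07, 5.14 and 5.32 (0.0142) and NOG at 5.01, 4.08 and 3.31 (0.0164). Library 1 was again the highest, but between libraries 2 and 3 alone these 3 genes did not pass (adjusted p = 0.259, 0.805 and 0.114).

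Other members were lowest in library 1 and highest in library 2. BMP1 stood at 117, 161 and 139.9 CPM (chi-square adjusted p = 0.000596 with the extra variation), LTBP3 at 241, 309.7 and 268 (0.00939) and LTBP4 at 82.7, 108 and 98.2 (0.00846). TGFBR2 at 107, 133 and 121 CPM (0.0328) and ACVR2B at 4.33, 6.30 and 5.39 CPM (0.0152) followed the same order of libraries. ACVR2B did not pass between libraries 2 and 3 alone (adjusted p = 0.137). Among the low members, ACVRL1 (0.0192) was also lowest in library 1 and passed with the extra variation.

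Most of the remaining called members spread less. TGFB1 had 318, 304 and 297 CPM (chi-square adjusted p = 7.24e-08), a ratio of highest to lowest of 1.07, and did not pass with the extra variation (adjusted p = 0.730). SMAD3, SMAD4, SMAD5, SMAD7 and SMAD1 passed against counting noise but not with the extra variation (adjusted p of 0.371, 0.680, 0.265, 0.491 and 0.0517). TGFBR1, BMPR2 and SMAD5 had library 2 as their lowest and library 3 as their highest. Of the detected members FST, BMP4, ACVR1, SMAD2, SMAD6, SMAD9, TGFB3 and TGFBR3 did not pass against counting noise. FST had 44.7, 45.3 and 44.5 CPM (adjusted p = 0.832), while INHBA, whose product it binds, had the largest chi-square statistic.

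**Figure D3:**
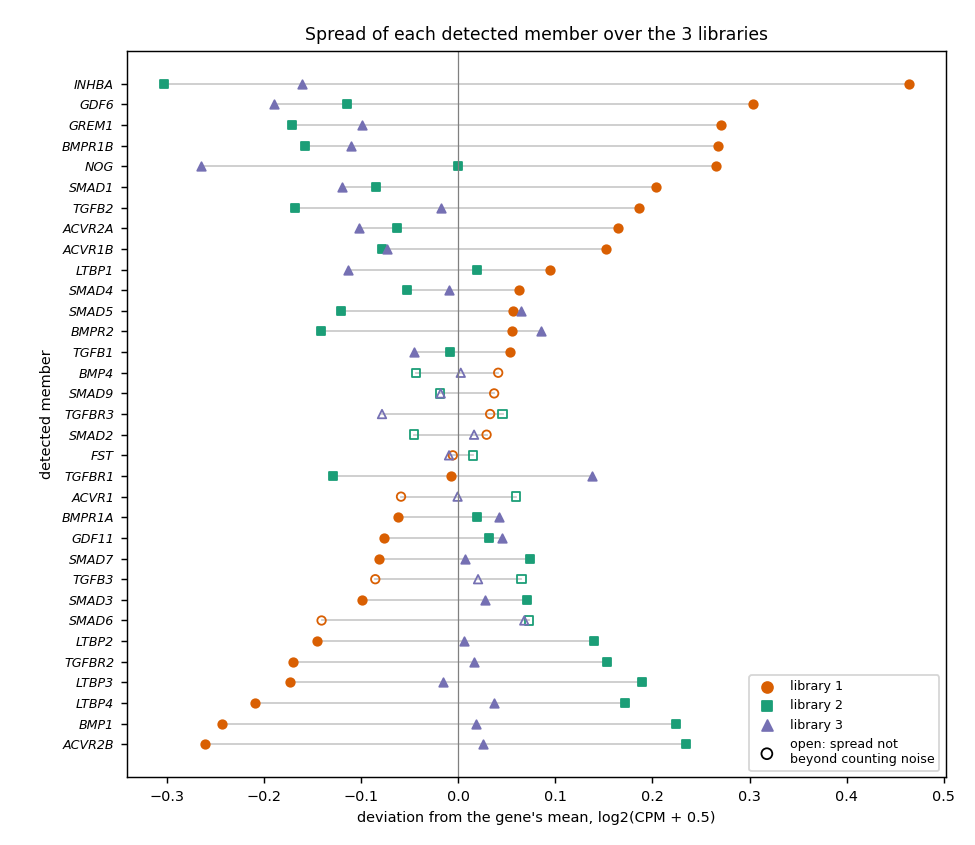
Deviation of each library from the gene's mean, in log2(CPM + 0.5), for the 33 detected members, ordered by library 1 minus the mean of libraries 2 and 3. Filled symbols mark the genes whose spread passed the chi-square test; library 1 (circles) lies to the right for INHBA, GDF6 and GREM1 and to the left for ACVR2B, BMP1 and LTBP4.

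Other genes of the pathway were read from lists that also hold regulators and targets. Genes known to respond to TGF-beta were all detected, 21 of 21, against 57.7% of all protein-coding genes. Their median was 57.9 RPKM, against 6.09 RPKM for all detected protein-coding genes. This list and those below were chosen with earlier results of these data known, so their detection, levels and spread are description only. TAGLN, an actin-binding protein, was among the highest at 426 ± 27.4 RPKM (SD, n = 3), and LMCD1 was the lowest at 1.88 ± 0.171 RPKM. Of these 21 genes 20 had a spread beyond counting noise, against 68.6% of all tested genes. In 10 of them library 1 was highest and in 10 lowest, against 27.9% and 33.4% of all tested genes, so the list had no common direction. With the extra variation 11 of the 21 passed, against 32.7% of all tested genes. JUNB had the widest ratio, with 104, 58.0 and 49.1 CPM. The list shares THBS1, TGM2, SKIL and PMEPA1 with other lists of the pathway and JUNB with the immediate early genes.

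Genes known to respond to BMP were detected for 9 of 12, with a median of 3.96 RPKM, and ID4, MSX2 and DLX5 had no counts. ID3, an inhibitor of helix-loop-helix factors, was the highest, with 81.1, 181 and 145 CPM in libraries 1, 2 and 3. Its relative ID1 stood at 43.1, 64.0 and 67.2 CPM, ID2 at 6.51, 9.55 and 10.1 and the transcription factor gene ATOH8 at 9.29, 18.9 and 16.2. Library 1 was therefore the lowest for each of these 4 genes, and also for MSX1 and BAMBI. HEY1 was the lowest detected, at 0.503 ± 0.0338 RPKM, and its spread did not pass (chi-square adjusted p = 0.720). Of the 9 tested genes 8 had a spread beyond counting noise, against 68.6% of all tested genes, 6 with library 1 lowest and 2, BMPER and RGS4, with it highest, against 33.4% and 27.9% of all tested genes. With the extra variation 7 of the 9 passed, against 32.7% of all tested genes. The median of library 1 minus the mean of libraries 2 and 3 was -0.38 (log2) for the BMP list, 0.05 for the family members and -0.03 for all detected genes. Between libraries 2 and 3 alone, ID3 (adjusted p = 7.01e-45) and ATOH8 (0.00442) still differed, while ID1 (0.118) and ID2 (0.519) did not pass. Beside this, GREM1 and NOG, whose products bind BMPs, were highest in library 1, and SMAD6, a gene that BMP signalling is known to raise, had 5.85, 6.86 and 6.84 CPM and did not pass (adjusted p = 0.103).

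**Figure D4:**
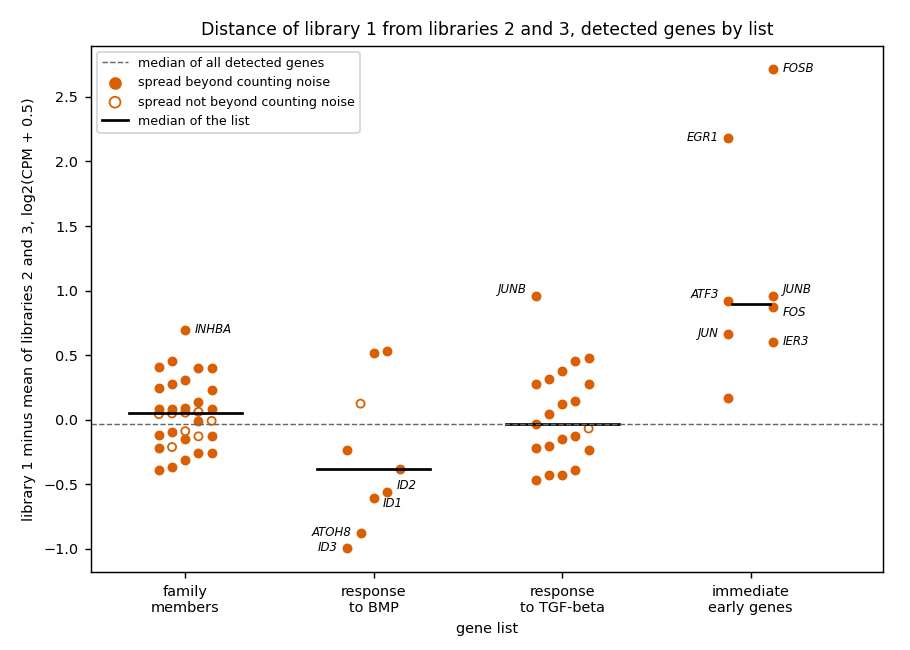
Library 1 minus the mean of libraries 2 and 3, in log2(CPM + 0.5), for the detected genes of 4 lists; each point is a gene, filled where its spread passed the chi-square test. The bar is the median of the list, -0.38 for the BMP response and 0.90 for immediate early genes, and the dashed line is the median of all detected genes, -0.03. The lists were chosen with earlier results of these data known.

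Immediate early genes, which cells switch on within minutes of a stimulus, were read beside these. All 10 of the list passed the chi-square test with library 1 highest, against 27.9% of all tested genes. All 10 also passed with the extra variation, against 32.7% of all tested genes. The list was chosen with earlier results of these data known, so these shares describe it and are not independent support. For IER2 library 1 hardly exceeded library 2, with 55.6, 55.1 and 44.5 CPM, and library 3 was the farthest from the others. The list had summed levels of 864, 455 and 388 CPM in libraries 1, 2 and 3. IER3 was the highest (98.5 ± 25.6 RPKM, SD, n = 3) and FOS the lowest detected (2.96 ± 1.26). EGR3 had the widest ratio, with 9.07, 1.37 and 0.620 CPM. JUNB belongs to this list and to the TGF-beta response list. The part of these genes, and of whatever set library 1 apart, in the spread of INHBA, GREM1, the LTBP genes and the BMP response genes was not tested.

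Regulators outside the family were read in the same way. Of 19 extracellular regulators 8 were detected (median 49.9 RPKM). The highest were THBS1, an activator of latent TGF-beta (122 ± 9.93 RPKM, SD, n = 3) and FSTL1 (109 ± 19.3 RPKM). BMPER was the lowest detected (0.862 ± 0.209 RPKM), and CER1, LEFTY1, LEFTY2, TDGF1, SOSTDC1 and CHRDL2 had no counts. Of these 19 genes 10 were tested and 9 passed (68.6% of all tested genes), 2 with library 1 highest and 6 with it lowest (27.9% and 33.4%). BGN had the widest ratio among those that passed, with 0.433, 0.856 and 0.641 CPM. With the extra variation 5 of the 10 tested regulators passed (32.7% of all tested genes). Of 10 co-receptors and receptor partners 5 were detected, FKBP1A (145.5 ± 6.95 RPKM), RGMB (14.1 ± 0.972), BAMBI, ENG and TGFBR3L, the lowest (1.99 ± 0.289), and RGMA, HJV, AMHR2, LRRC32 and NRROS were not. Of the 7 tested 6 passed, against 68.6% of all tested genes, and LRRC32, which presents latent TGF-beta on cell surfaces, had the widest ratio of those that passed, with 35, 7 and 5 counts. With the extra variation 2 of the 7 passed, against 32.7% of all tested genes.

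Intracellular regulators of SMAD signalling were almost all present, with 19 of 20 detected and a median of 6.23 RPKM. STRAP (114 ± 14.1 RPKM) and the SMAD repressor SKI (18.8 ± 1.41) were highest and TGIF2 lowest (3.86 ± 0.380), while FOXH1, a nuclear partner of SMAD2, had 31, 27 and 16 counts. Of the 20 genes 18 passed the chi-square test (68.6% of all tested genes), 9 with library 1 highest and 7 with it lowest (27.9% and 33.4% of all tested genes). RNF111, a ubiquitin ligase known to remove SMAD7, had the widest ratio of highest to lowest among the 18 that passed, with 39.7, 28.4 and 28.7 CPM. With the extra variation 4 of the 20 passed, against 32.7% of all tested genes. Of 11 matrix and integrin partners of latent TGF-beta 9 were detected, with FN1 (570.4 ± 12.9 RPKM) and ITGB1 (473 ± 54.9) highest and EMILIN1 and ITGB6 below detection. ITGB8, an integrin subunit that activates TGF-beta, was the lowest detected and had the widest ratio, with 6.28, 2.11 and 2.84 CPM. Of these 11 genes 10 passed (68.6% of all tested genes), 4 with library 1 highest and 4 with it lowest (27.9% and 33.4%). With the extra variation 6 of the 11 passed (32.7% of all tested genes).

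Library 1 also held counts for fewer members, 43 of 59, against 51 and 50 in libraries 2 and 3. Of the members, 6 were seen in both other libraries but were at 0 in library 1, namely BMP3, BMP8A, BMP8B, BMP10, INHBC and NODAL, and 0 members were missing only from library 2 or only from library 3. Over all genes 2785 were missing only from library 1, 261 only from library 2 and 560 only from library 3. The 6 members had between 1 and 9 counts where present.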

How the data were processed

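RNA of 3 libraries was sequenced after poly(A) selection. The authors deposited whole-number counts of reads per gene, without normalisation. Tools listed in the submitters' processing notes are STAR 2.5.2a, featureCounts 1.6.2 and cutadapt 1.16, with the build hg38 and no roles. How strand and multi-mapped reads were handled, and which annotation was counted, is not given in the sources used here, so overlapping genes and close paralogues are uncertain. A further 6 per-sample columns in the table match no sample described here and were left unused.

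All 58735 gene identifiers matched GENCODE release 29, which gave positions and exon lengths. CPM used edgeR 4.0.16 TMM factors in R 4.3.3 (0.985, 1.01 and 1.00 for libraries 1, 2 and 3), and RPKM used the union of annotated exons. Spread was tested by chi-square with 2 degrees of freedom for each gene whose mean count reached 10. It covers counting error only, as do the floors of 3 counts, since reads are not independent molecules. Pair ratios used a pseudocount of 0.5 count, and deviations 0.5 CPM. The principal transcript is the longest with the best APPRIS tag. Counts over 16296 genes were also simulated with counting noise alone. On these the test called 65% of genes raised 1.25-fold and 92% of genes raised 2-fold in 1 library, and 0.0311% of unchanged genes. The simulation held no variation beyond counting, so these shares are not error rates for the real libraries. Promoter sequences came from RefSeq (GRCh38.p14).

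Members and lists were chosen with earlier results of these data known. Members with a mean count of at least 10 are given with values, and a few genes that enter the counts are not reported here by name. From each other list the 2 highest, the lowest and the most variable genes were named, with defining genes below detection; other genes named from these lists were picked after their values were seen. A planned comparison of protein sequences was not made. Alternatives covered scaling, filters, length, pseudocounts, extra variation and leaving out each library.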

Additional observations from a re-analysis of the deposited data

How the results depend on the processing

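The count of detected members was 33 to 35 under every alternative run, and that of protein-coding genes stayed within 1.5 times of 11508. Members with a spread beyond counting noise numbered 27 by counting noise alone and 13 with an extra coefficient of variation of 0.05, and over all genes 11182 and 5322. When each library was left out in turn the members numbered 12 to 28 and all genes 4581 to 10016, both lowest without library 1; the cause was not tested. Other scalings and count filters gave 26 or 27 members; library totals alone lost ACVR2A and SMAD4 and gained ACVR1 and SMAD6. Without library 2 BMPR2, SMAD4 and SMAD5 were among the 4 lost, and without library 3 NOG and LTBP1 were lost and ACVR1, BMP6 and SMAD6 gained. Without library 1 ACVRL1 passed detection, giving 34 members. The median level of detected members, 2.87 in log2(RPKM + 0.1), was 3.04 with the longest transcript and 3.04 with the principal transcript, a choice added after seeing the data, 3.04 with a pseudocount of 1 RPKM, 0.18 with all 59 members and 5.78 as log2 CPM without length, and 2.86 to 2.90 with each library left out. The moves with length, pseudocount and all members follow from how those alternatives are built, and for the value without library 2 the cause was not tested. TGFBR1 over ACVR1B (log2 ratio -0.032) became 0.23 without length and ranged from -0.14 to 0.049 with each library left out, turning positive without library 1, and BMPR1A over ACVR1 (-0.63) became 0.88 without length. The other 17 pairs kept their direction in all alternatives. No paired analysis was possible because there is only 1 group.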
